A study of Mus musculus with 10 samples.

Results

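The genes for the synthesis, binding and turnover of hyaluronan were followed in uterine RNA of female FVB/N mice. They were chosen by name, with earlier results of these data known, and are 10 of the 29268 genes in the table. They comprise the synthases *Has1*, *Has2* and *Has3*, the hyaluronidases *Hyal1* and *Hyal2*, the receptors *Cd44* and *Lyve1*, the matrix partners *Vcan* and *Tnfaip6*, and *Cemip*. The transgenic group (HSD17B1TG, n = 5) were heterozygous mice that express human *HSD17B1* universally from a CMV-enhanced chicken beta actin promoter. The control group were wild-type mice (WT, n = 5), and all mice were 4 months old, with 1 library per mouse. The HSD17B1TG mice do not cycle, whereas WT uteri of the study were taken at random cycle phases, and the phase of each WT mouse is not given in the sources used here. Genotype and cycling thus cannot be told apart. By ascending animal number, the mice are called TG1 to TG5 and, for the controls, WT1 to WT5.

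Hyaluronan is a long unbranched sugar chain of the extracellular matrix that binds water. The synthases build it at the cell membrane from nucleotide sugars and extrude it, and hyaluronidases and CEMIP cut it into shorter chains. CD44 and LYVE1 bind it at the cell surface. Versican, the product of *Vcan*, and TSG-6, the product of *Tnfaip6*, organize the chains into a gel-like matrix. In the female reproductive tract hyaluronan is known from the expanding cumulus, the ripening cervix and the hydrated endometrial stroma.

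Levels are given as FPKM, read numbers scaled by gene length and by library size, which allows genes to be compared. Differences are log2 fold changes of HSD17B1TG over WT from edgeR's quasi-likelihood test on raw counts, in which all 10 genes passed the filter on low counts. A gene was called when its adjusted p-value over the 16993 genes tested was under 0.05, its fold change over 2 and its mean FPKM over 1 in either group. Total counts lay between 14817228 and 23271988 per mouse. Mouse *Hsd17b1* was at 0.992 ± 0.291 FPKM (SD, n = 5) in the HSD17B1TG mice and 0.918 ± 0.375 in WT. The human transgene is not counted with the mouse annotation, so the genotype labels could not be checked on it.

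Of the 10 genes, *Has2*, *Vcan*, *Tnfaip6* and *Cd44* were called lower in the HSD17B1TG uterus (edgeR), whereas 2.08% of all genes tested were called lower and 4.24% were called in either direction. None was called higher in edgeR, DESeq2's Wald test or limma's voom, and none of the higher genes had an unadjusted p-value under 0.05 in edgeR, against 2.16% of all genes called higher. *Has1* and *Has3* had lower levels in HSD17B1TG without being called, and with *Cemip* they are the 3 genes whose mean FPKM did not pass 1 in either group, so the rule could not call them. The median log2 fold change of the 10 genes was -1.21, beside 0.00 for all genes tested. In *Has2*, *Vcan* and *Tnfaip6* the highest HSD17B1TG mouse was below the lowest WT mouse, a separation found in 2.65% of all genes tested in that direction and in 6.69% in either. An unadjusted p-value under 0.05 was reached by 6 of the 10, all lower, and by 11.4% of all genes in that direction and 26.1% in either. The calls depended on single mice. Without TG5 no gene of the 10 was called in edgeR, although 6 had an unadjusted p-value under 0.05. Without TG2, TG4, WT1, WT2 or WT3 only *Tnfaip6* was called, without WT5 *Tnfaip6* and *Vcan* were, and without WT4 *Lyve1* was called higher in addition to the 4. The number of genes called over the whole table moved in the same fits, from 721 with all mice to 65 without TG5 and 1554 without WT4.

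**Figure D1:**
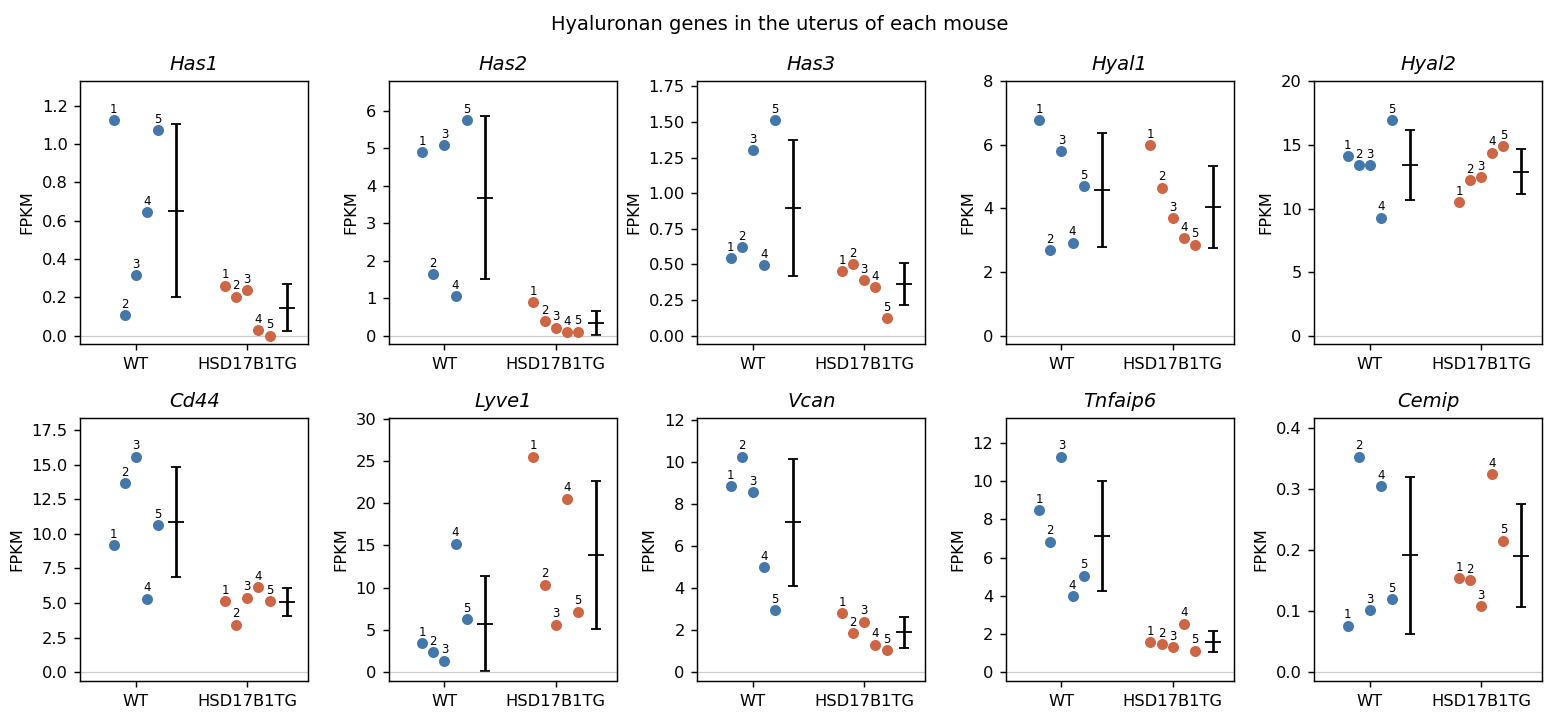
FPKM of each hyaluronan gene in each mouse (points, numbered by mouse) for WT (blue) and HSD17B1TG (orange), with the mean and SD of each group of 5 in black. In *Has2*, *Vcan* and *Tnfaip6* the HSD17B1TG mice all lie below the WT mice, while in *Hyal1*, *Hyal2* and *Cemip* the groups cover each other.

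**Figure D2:**
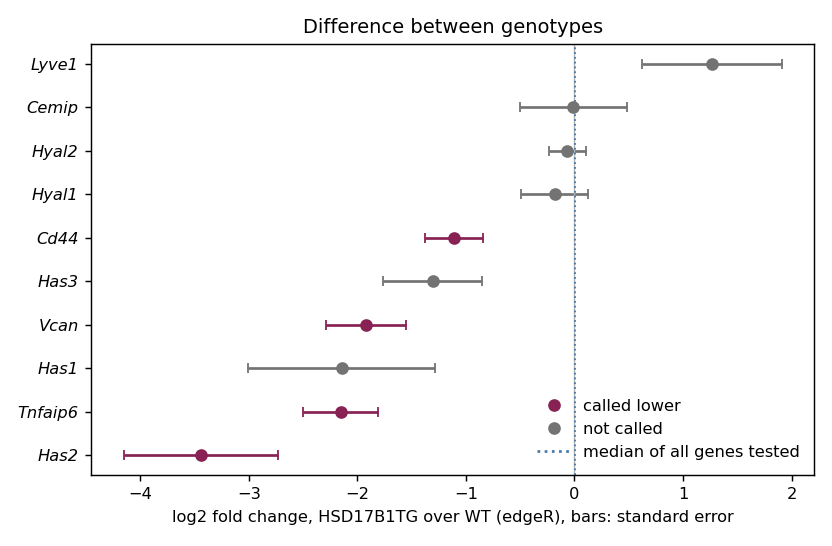
Log2 fold change of HSD17B1TG over WT for each gene in edgeR (points) with its standard error (bars), called genes in purple and the median of all genes tested as a dotted line. *Has2* lies farthest from 0 at -3.44, and *Lyve1* is the gene on the positive side at 1.27.

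The promoters of the called genes *Tnfaip6*, *Vcan* and *Cd44* are shown as a description. They were read from a set of RefSeq promoters (GRCm38.p6) that covered 7 of the 10 genes. The set used had no entry for *Has2*, *Has3* and *Lyve1*, so these promoters were not searched. The 250 bases before the RefSeq start site were searched, and they are printed 5′ to 3′ on the strand of the gene, as far as they lie outside the gene by the coordinates of the count table. The 2 starts differ in *Tnfaip6*, where the table puts the gene start at 52038009 and RefSeq at 52038113, so 104 of its 250 bases lie inside the gene of the table and 146 are printed. All 250 bases of *Hyal2* lie inside the gene of the table, as do 17 of *Has1* and 23 of *Hyal1*. Capitals mark matches on either strand to a full estrogen response element, 1 arm of that element (AGGTCA), an AP-1 site (TGANTCA), a CRE (TGACGTCA), a TATA box (TATAAA) or a GC box (GGGCGG). The *Tnfaip6* stretch is chr2:52037863-52038008 (plus strand), that of *Vcan* chr13:89742513-89742762 (minus strand) and that of *Cd44* chr2:102901666-102901915 (minus strand).
Tnfaip6: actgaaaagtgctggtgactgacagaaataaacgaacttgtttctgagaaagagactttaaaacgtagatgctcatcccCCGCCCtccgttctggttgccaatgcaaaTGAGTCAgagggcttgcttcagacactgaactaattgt
Vcan: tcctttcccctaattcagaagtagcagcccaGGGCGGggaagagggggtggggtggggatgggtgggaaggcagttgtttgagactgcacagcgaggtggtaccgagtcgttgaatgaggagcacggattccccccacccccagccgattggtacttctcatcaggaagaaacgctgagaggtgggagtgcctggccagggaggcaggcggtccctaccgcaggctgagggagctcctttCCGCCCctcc
Cd44: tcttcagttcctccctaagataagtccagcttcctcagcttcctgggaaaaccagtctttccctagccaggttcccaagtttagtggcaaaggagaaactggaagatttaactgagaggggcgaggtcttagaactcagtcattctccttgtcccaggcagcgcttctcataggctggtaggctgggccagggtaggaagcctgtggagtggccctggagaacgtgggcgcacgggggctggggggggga

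The *Tnfaip6* stretch held an AP-1 match (TGAGTCA) that begins 142 bases before the RefSeq start, or 38 before the start in the table, and a GC box at 171 and 67. A match to the arm (TGACCT on this strand), 65 bases before the RefSeq start, lies inside the gene of the table and is not printed. Over the same 250 bases of 27025 RefSeq promoters, an AP-1 match was found in 6.87%, an arm in 13.8% and a GC box in 32.9%. The *Vcan* stretch held GC boxes that begin at 219 and at 10 bases before the RefSeq start. The *Cd44* stretch held none of these 6 motifs, and no full estrogen response element, which 0.0629% of all promoters hold, was found in any of the 7 promoters. Of the genes not called, the *Has1* promoter held an arm at 113 and a CRE at 83 bases before the RefSeq start, the latter found in 1.62% of all promoters. GC boxes were also found in the promoters of *Hyal1*, *Hyal2* and *Cemip*, which were not called, and *Cemip* held a TATA box, found in 13% of all promoters.

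Among the synthases, *Has2* makes the long chains of the cumulus and of many mesenchymal tissues. *Has2* (ENSMUSG00000022367, chromosome 15 from 56665627 to 56694539, GRCm38) had 4.90, 1.64, 5.08, 1.05 and 5.76 FPKM in WT1 to WT5. In TG1 to TG5 it had 0.886, 0.380, 0.213, 0.102 and 0.106 FPKM. WT1, WT3 and WT5 were high, WT2 and WT4 were lower, and the highest HSD17B1TG mouse stayed below the lowest WT mouse. The group means were 3.69 ± 2.17 FPKM (SD, n = 5) in WT and 0.338 ± 0.327 in HSD17B1TG. *Has2* had the largest difference of the 10 genes, a log2 fold change of -3.44 (standard error, SE, 0.71, edgeR adjusted p = 0.0279), about 10.9-fold lower. The HSD17B1TG values rest on 7 to 70 counts per mouse and the WT values on 92 to 510. The antisense gene *Has2os* overlaps 4596 bases of *Has2* on the other strand and had at most 84 counts in a mouse. By exact permutation (two-sided) of log2(FPKM + 0.1), *Has2* had p = 0.00794, the lowest value that groups of 5 can reach.

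*Has3* (ENSMUSG00000031910, chromosome 8 from 106870242 to 106884566), which makes shorter chains and is known from epithelia, had 0.542, 0.619, 1.30, 0.493 and 1.52 FPKM in WT1 to WT5. In TG1 to TG5 it had 0.454, 0.505, 0.392, 0.340 and 0.121 FPKM, so that all but TG2 lay below each WT mouse. Its log2 fold change was -1.31 (standard error 0.45), which did not pass in edgeR (adjusted p = 0.1001) and had an adjusted p-value of 0.0359 in DESeq2. WT3 and WT5 stood above the other WT mice, with a WT mean of 0.894 ± 0.478 FPKM (SD, n = 5) and an HSD17B1TG mean of 0.362 ± 0.149. The last bases of *Has3* are overlapped by *Chtf8* on the other strand, a gene with up to 2667 counts per mouse.

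*Has1* (ENSMUSG00000003665, chromosome 17 from 17843323 to 17855205) was the lowest synthase in most mice. It had 1.13, 0.105, 0.316, 0.643 and 1.07 FPKM in WT1 to WT5 and 0.261, 0.204, 0.235, 0.0275 and 0 FPKM in TG1 to TG5. The groups overlapped through WT2, which lay below TG1, TG2 and TG3. TG4 had 2 counts and TG5 had 0, and a count of 0 in TG5 allows up to 3 counts, or 0.0427 FPKM, by counting error alone. The log2 fold change was -2.14 (SE 0.86, edgeR adjusted p = 0.146, exact permutation p = 0.0556), so a difference in *Has1* was not shown at this depth and spread.

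Summed over the 3 synthases, the level was 6.56, 2.36, 6.70, 2.19 and 8.35 FPKM in WT1 to WT5 and 1.60, 1.09, 0.840, 0.470 and 0.227 FPKM in TG1 to TG5. The sums of the groups did not overlap, and *Has2* had the largest share of the sum in each WT mouse. *Has2* took 67.4% ± 11.2 (SD, n = 5) of the summed FPKM in WT and 36.8% ± 14.2 in HSD17B1TG. *Has3* took 18.9% ± 6.72 in WT and 49.4% ± 15.8 in HSD17B1TG, and its lowest share in an HSD17B1TG mouse (28.4%) was above its highest in a WT mouse (26.2%). The share of *Has1* was 13.7% ± 10.3 in WT and 13.8% ± 11.02 in HSD17B1TG. These shares are descriptions, without a test, and in TG4 and TG5 they rest on the few counts given above.

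**Figure D3:**
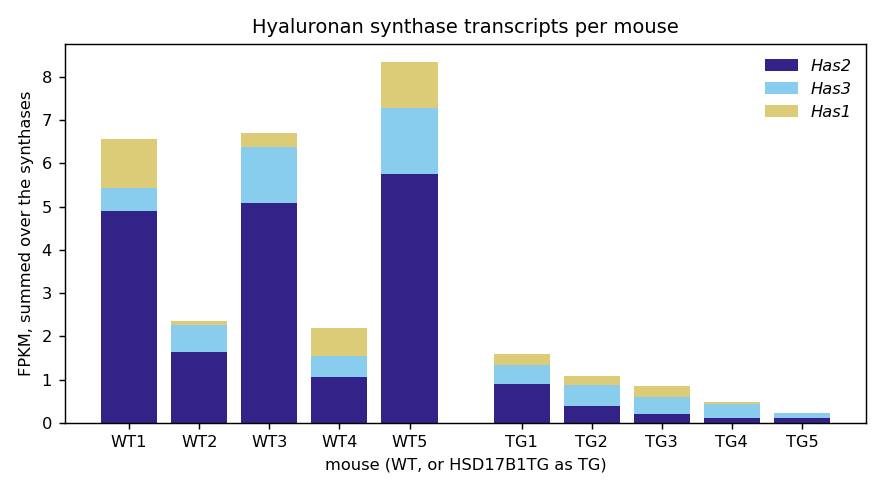
Stacked bars of the FPKM of *Has2*, *Has3* and *Has1* in each mouse, with WT on the left and HSD17B1TG on the right. The sum runs from 2.19 to 8.35 FPKM in WT and from 0.227 to 1.60 in HSD17B1TG, and the *Has2* part shrinks most.

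*Tnfaip6* (ENSMUSG00000053475, chromosome 2 from 52038009 to 52056686) encodes TSG-6, which moves the heavy chains of inter-alpha-inhibitor onto hyaluronan. It had 8.49, 6.83, 11.3, 3.99 and 5.05 FPKM in WT1 to WT5 and 1.57, 1.48, 1.31, 2.54 and 1.13 FPKM in TG1 to TG5. The groups were apart, with TG4 the highest of the HSD17B1TG mice and WT4 the lowest of the WT mice. Its log2 fold change was -2.16 (SE 0.34, edgeR adjusted p = 0.0177), 4.46-fold lower, with 1.60 ± 0.549 FPKM (SD, n = 5) in the HSD17B1TG mice and 7.13 ± 2.89 in WT. *Tnfaip6* held its adjusted p-value under 0.05 in 9 of the 10 fits that left out a mouse, and had 0.0508 in edgeR without TG5.

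*Vcan* (ENSMUSG00000021614, chromosome 13 from 89655312 to 89742509) encodes versican, the large proteoglycan that binds hyaluronan through its link module. It had 8.83, 10.2, 8.57, 5.00 and 2.94 FPKM in WT1 to WT5. In TG1 to TG5 it had 2.81, 1.86, 2.41, 1.32 and 1.05 FPKM. The groups did not overlap, but WT5 lay close to TG1. The log2 fold change was -1.92 (SE 0.37, edgeR adjusted p = 0.0239), 3.79-fold lower, with means of 1.89 ± 0.735 FPKM (SD, n = 5) in the HSD17B1TG mice and 7.12 ± 3.03 in WT. The table gives 1 value per gene, so the splice forms of versican, which differ in their glycosaminoglycan attachment regions, were not told apart.

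*Cd44* (ENSMUSG00000005087, chromosome 2 from 102811141 to 102901665), the main cell-surface receptor of hyaluronan, had 9.18, 13.6, 15.6, 5.32 and 10.6 FPKM in WT1 to WT5. In TG1 to TG5 it had 5.16, 3.44, 5.40, 6.16 and 5.14 FPKM. WT4 lay among the HSD17B1TG mice and the other WT mice lay above all of them. The log2 fold change was -1.11 (SE 0.27, edgeR adjusted p = 0.0414, exact permutation p = 0.0238), 2.16-fold lower. This was the smallest difference of the 4 called genes and the least firm. Its adjusted p-value was 0.0626 in limma's voom and passed 0.05 in 3 of the 10 edgeR fits that left out a mouse, with 0.00633 without WT4.

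*Lyve1* (ENSMUSG00000030787, chromosome 7 from 110850607 to 110863239), the hyaluronan receptor of lymphatic endothelium and of some tissue macrophages, was the gene of the 10 with a positive log2 fold change. It had 3.47, 2.42, 1.38, 15.2 and 6.32 FPKM in WT1 to WT5 and 25.5, 10.4, 5.63, 20.5 and 7.18 FPKM in TG1 to TG5. TG1 and TG4 lay above each WT mouse, and WT4 lay above TG2, TG3 and TG5. The log2 fold change of 1.27 (standard error 0.64) was not called (adjusted p = 0.239 in edgeR, exact permutation p = 0.0714). It was 2.02 without WT4, with an adjusted p-value of 0.0417 in edgeR. *Lyve1* varied more than any other of the 10 genes among the WT mice, with a highest value 11.02 times the lowest, followed by *Has1* with 10.7 times.

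The genes of breakdown showed no such fall. *Hyal2* (ENSMUSG00000010047, chromosome 9 from 107567945 to 107572779), the membrane-anchored hyaluronidase that makes the first cuts, had 14.2, 13.4, 13.4, 9.28 and 17.0 FPKM in WT1 to WT5 and 10.5, 12.2, 12.5, 14.4 and 14.9 FPKM in TG1 to TG5. The groups covered each other, and the log2 fold change was -0.06 (SE 0.17, edgeR adjusted p = 0.842). Left-out mice moved it between -0.17 and 0.01, but these fits share most of their mice, so this range does not measure sampling error. *Hyal1* (ENSMUSG00000010051, chromosome 9 from 107576927 to 107581710), the lysosomal hyaluronidase, had 6.78, 2.69, 5.81, 2.92 and 4.71 FPKM in WT1 to WT5 and 5.98, 4.66, 3.69, 3.05 and 2.86 FPKM in TG1 to TG5. Its log2 fold change was -0.18 (SE 0.31, edgeR adjusted p = 0.750). *Hyal1* shares 2824 bases with *Naa80* on the same strand, so reads there could have been assigned to either gene.

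*Cemip* (ENSMUSG00000052353, chromosome 7 from 83932857 to 84086502), whose product takes part in the breakdown of hyaluronan, had at most 0.353 FPKM in any mouse. Its means were 0.190 ± 0.0840 FPKM (SD, n = 5) in the HSD17B1TG mice and 0.191 ± 0.128 in WT, and its 20 to 82 counts per mouse left a wide standard error (log2 fold change -0.01, SE 0.49, edgeR adjusted p = 0.993). Set against *Hyal1* and *Hyal2* together, the summed synthase level was 0.147 to 0.385 of the hyaluronidase level in the WT mice and 0.0128 to 0.0971 in the HSD17B1TG mice. The hyaluronidase sum itself lay between 12.2 and 21.7 FPKM in WT and between 16.2 and 17.8 FPKM in HSD17B1TG.

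In the order of mean FPKM, the WT uterus held *Hyal2*, *Cd44*, *Tnfaip6*, *Vcan*, *Lyve1*, *Hyal1*, *Has2*, *Has3*, *Has1* and *Cemip*. The ranges of every pair of neighbours in that order overlapped, although *Cd44* was above *Tnfaip6* and *Has2* above *Has3* in 5 of 5 WT mice. In HSD17B1TG the order was *Lyve1*, *Hyal2*, *Cd44*, *Hyal1*, *Vcan*, *Tnfaip6*, *Has3*, *Has2*, *Cemip* and *Has1*. There the ranges were apart between *Hyal2* and *Cd44*, between *Hyal1* and *Vcan* and between *Tnfaip6* and *Has3*, and overlapped between the other neighbours.

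The same mice were not low in every gene. WT4 had the lowest WT level of *Has2*, *Has3*, *Tnfaip6*, *Cd44* and *Hyal2* and the highest of *Lyve1*. WT2 had the lowest WT level of *Has1* and the highest of *Vcan*. In HSD17B1TG, TG1 had the highest *Has1*, *Has2*, *Vcan*, *Hyal1* and *Lyve1*, and TG5 had the lowest *Has1*, *Has3*, *Vcan*, *Tnfaip6* and *Hyal1*.

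**Figure D4:**
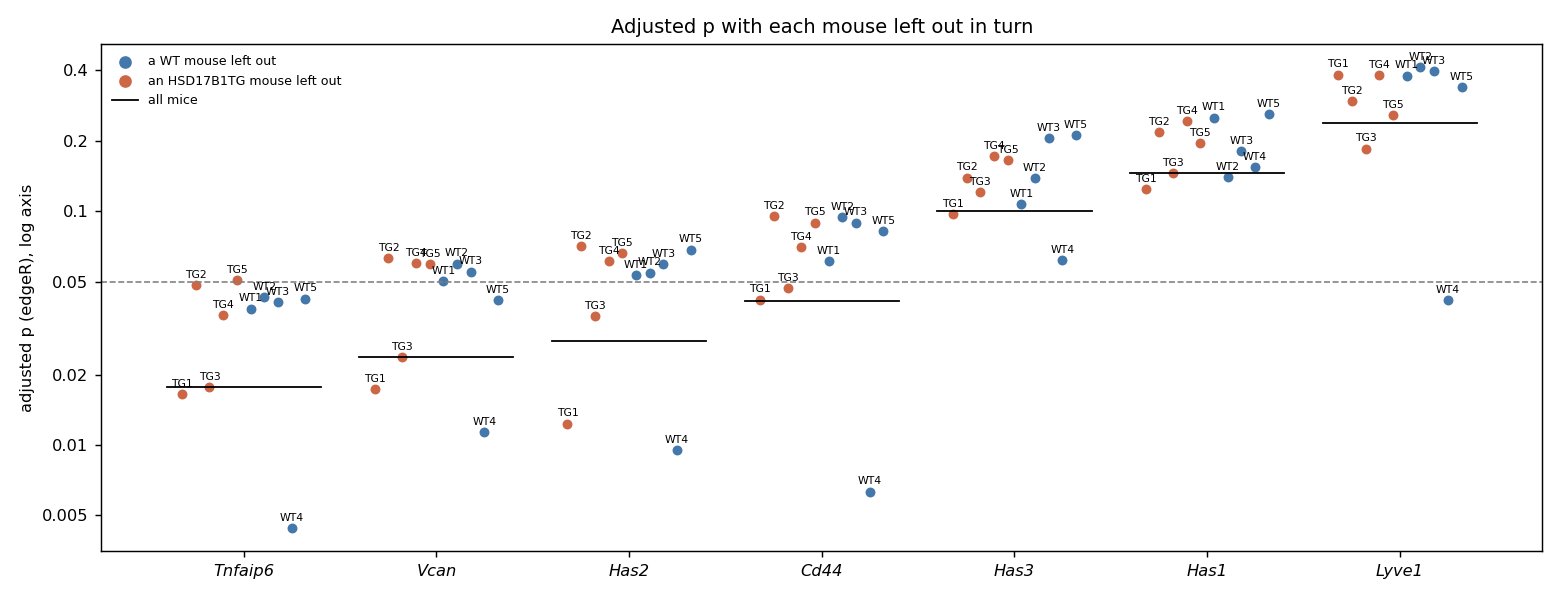
Adjusted p-value in edgeR (log axis) of 7 of the genes when a WT mouse (blue) or an HSD17B1TG mouse (orange) was left out, with the value of all mice as a black line and 0.05 dashed. *Tnfaip6* stays under 0.05 in 9 of the 10 fits, *Vcan* in 4, and *Has2* and *Cd44* in 3 each, and leaving out WT4 gave the lowest value for each plotted gene but *Has1*.

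RNA of whole uterus was sequenced, so fewer cells of a type and less RNA per cell cannot be told apart. Stromal fibroblasts are a known source of hyaluronan and versican. Of 12 stromal marker genes, 5 were called lower (*Pdgfra*, *Col3a1*, *Thy1*, *Hoxa11* and *Hand2*), beside 2.08% of all genes tested. Of the 12, 11 had a negative log2 fold change and none was at 0, with a median of -1.28 beside 0.00 for all genes tested. Without TG5 none of the 12 was called in edgeR, and without TG2 or WT5 only 1 was. Their summed FPKM was 2308 to 3116 in WT and 708 to 2651 in HSD17B1TG. TG1 had a sum of 2651 FPKM, within the WT range, to which *Lum* gave 598 FPKM against at most 291 in a WT mouse. By single markers TG1 was below each WT mouse in 4 of the 12, *Pdgfra*, *Hand2*, *Col3a1* and *Col1a1*, of which 3 are among the called. Per 1000 summed stromal FPKM, *Has2* had 0.0643 to 0.334 in the HSD17B1TG mice and 0.419 to 2.12 in WT, again without overlap, on a scale that rests on this sum. On the same scale *Tnfaip6* had 0.592 to 1.594 and 1.592 to 3.95, *Vcan* 0.827 to 2.28 and 0.944 to 4.44, and *Cd44* 1.95 to 7.26 and 2.12 to 5.91, so these 3 genes overlapped between the groups. The part of the stromal markers in the differences was not tested further.

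*Cd44* is also a gene of leucocytes. Of 8 leucocyte markers, *Laptm5* was called higher, beside 2.16% of all genes tested, 7 had negative log2 fold changes and none was at 0. An unadjusted p-value under 0.05 in edgeR was reached by 4, beside 26.1% of all genes tested. DESeq2 gave 3 an adjusted p-value under 0.05 and called 2 of them lower, beside 2.29% of all its genes. The share of all genes with a DESeq2 adjusted p-value under 0.05 alone is not given here. In edgeR none was called without TG2, TG4, TG5, WT2, WT3 or WT5, whereas 3 were called lower without WT4, beside 3.84% of all genes, 2 with total-count scaling, beside 2.91%, and 1 with upper quartile scaling, beside 2.38%. The summed level of the list was 54.6 to 81.0 FPKM in the HSD17B1TG mice and 45.9 to 89.6 in WT. Without *Laptm5* it was 22.7 to 32.6 and 25.4 to 77.0, and WT4, the WT mouse with the lowest *Cd44*, had the lowest WT level in 7 of the 8 markers. Beside *Lyve1*, all 8 tested entries of the lymphatic endothelial markers had positive log2 fold changes with a median of 2.03. *Prox1* was above 0 in each mouse, and *Reln* was at 0 in WT3. None of them was called in edgeR, where 6 had an unadjusted p-value under 0.05, beside 26.1% of all genes tested. *Prox1*, which encodes the defining lymphatic transcription factor, had 1.48 ± 0.978 FPKM (SD, n = 5) in the HSD17B1TG mice and 0.284 ± 0.239 in WT (adjusted p = 0.0581 in edgeR). DESeq2, which tested 9 entries, gave 7 an adjusted p-value under 0.05 and called 3 higher, beside 3.11% of all its genes. In edgeR 3 were called higher without WT4, beside 5.12% of all genes, and 2 without TG3, beside 2.12%. Their summed level was 27.2 to 64.4 FPKM in the HSD17B1TG mice and 6.33 to 46.5 in WT. One *Ccl21a* entry held most of the WT1 sum, and without the *Ccl21a* entries the sum was 7.41 to 38.1 FPKM in the HSD17B1TG mice and 5.62 to 13.4 in WT, with WT4 the highest WT mouse. As for *Lyve1*, WT4 had the highest WT level in 5 of the 8 entries, and TG1 and TG4 had the highest HSD17B1TG levels in 7. Among 10 macrophage markers *Cd68* was called higher, beside 2.16% of all genes tested, and *Mertk* lower, beside 2.08%, in edgeR. Without TG4, TG5, WT1, WT2, WT3 or WT5 none was called. Over the macrophage list the summed level was 173.9 to 297.5 FPKM in the HSD17B1TG mice and 150.7 to 227.7 in WT. The summed level of the smooth muscle markers was, as for *Lyve1*, highest in WT4 among the WT mice (4445 FPKM). Among the HSD17B1TG mice it was highest in TG1 (6270 FPKM) and TG4 (2687 FPKM). The part of these cell types in *Cd44* and *Lyve1* was not tested.

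Around the 10 genes, 4 lists of further hyaluronan genes were examined. The precursors are made from glucose by the hexosamine pathway and UDP-glucose dehydrogenase. Of 18 such genes tested, 13 had positive log2 fold changes and the median was 0.22, but the split was 9 to 9 when counts were scaled by their total only, a scaling that moved the median of all genes to -0.17. *Gfpt2*, which makes glucosamine 6-phosphate at the entry of the hexosamine pathway, was the gene called in edgeR, where 2.08% of all genes were called lower. DESeq2 called 1 precursor gene lower and 1 higher, voom with quality weights 1 lower and 2 higher, and voom without them none, where *Gfpt2* had an adjusted p-value of 0.0535. Of all genes, DESeq2 called 3.11% higher and 2.29% lower, and voom with quality weights 6.37% and 3.91%. *Nagk*, which recycles N-acetylglucosamine, passed the p threshold but not the fold threshold (log2 fold change 0.47, adjusted p = 0.0445 in edgeR), and missed the p threshold in 8 of the 10 fits that left out a mouse, with total-count (adjusted p = 0.166) or upper quartile scaling (0.0805) and without the filter on low counts (0.109). *Gfpt2* was lower in HSD17B1TG at 1.06 ± 0.617 FPKM (SD, n = 5) against 4.73 ± 2.62 in WT (log2 fold change -2.16, adjusted p = 0.0427 in edgeR), and was under 0.05 without TG1, TG3 or WT4 but not without any other single mouse. Its widely expressed relative *Gfpt1* had 19.2 ± 7.24 FPKM in the HSD17B1TG mice and 15.0 ± 4.37 in WT and was not called (adjusted p = 0.461 in edgeR). *Gfpt1* is named after its values were seen.

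Of 5 further genes of hyaluronan breakdown that were tested, 4 had positive log2 fold changes, with a median of 0.45, and none was called in edgeR or DESeq2. By unadjusted p-value 2 were under 0.05 in edgeR, beside 26.1% of all genes tested, and DESeq2 gave 1 an adjusted p-value under 0.05. Their summed level was 99.9 to 130.8 FPKM in the HSD17B1TG mice and 70.5 to 88.8 in WT, without overlap. Of 7 further receptors, *Tlr2*, a pattern receptor reported to sense hyaluronan fragments, was called higher, beside 2.16% of all genes tested. *Tlr2* had 15.1 ± 4.84 FPKM (SD, n = 5) in the HSD17B1TG mice and 4.93 ± 2.39 in WT (log2 fold change 1.61, adjusted p = 0.0306 in edgeR). It was under 0.05 without TG1, TG3 or WT4 and over it without any other single mouse. The receptors had a median log2 fold change of 0.36, which was 0.08 without TG1, 0.22 without WT2 and 0.57 without TG5. Their summed level was 37.6 to 51.5 FPKM in the HSD17B1TG mice and 19.3 to 33.5 in WT, also without overlap. The called *Tlr2* is part of this sum. It gave 22.7 of the 40.2 FPKM of TG5 and 8.10 of the 33.5 FPKM of WT4. Whether the groups stay apart without *Tlr2* was not tested.

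Of 16 further matrix partners tested, 13 had negative log2 fold changes and the median was -0.76. It was -0.49 without TG4, -0.51 without TG5 and without TG2, and -0.50 over the 26 genes that DESeq2 tested. *Adamts15*, a protease that cuts versican, was the gene called in edgeR, where 2.08% of all genes were called lower. DESeq2 called 3 of 26 lower, beside 2.29% of all its genes, and voom with quality weights 3 of 16, beside 3.91%. *Adamts15* was lower, at 1.64 ± 0.504 FPKM (SD, n = 5) in the HSD17B1TG mice and 4.63 ± 1.63 in WT (log2 fold change -1.50, adjusted p = 0.0260 in edgeR). It passed 0.05 without TG1, TG3, WT1, WT2 or WT4 and missed it without TG2, TG4, TG5, WT3 or WT5. All 5 tested proteases of this family in the list had negative log2 fold changes. *Adamts1* had 17.3 ± 11.6 FPKM in the HSD17B1TG mice and 49.7 ± 22.9 in WT (adjusted p = 0.0739 in edgeR), and *Adamts5* 1.28 ± 0.640 and 3.68 ± 1.50 (adjusted p = 0.0534 in edgeR). The link protein gene *Hapln1*, whose product fixes proteoglycans to hyaluronan, had 0.147 ± 0.0617 FPKM in the HSD17B1TG mice and 0.879 ± 1.08 in WT (adjusted p = 0.0840 in edgeR). These last 3 genes were named after their values were seen.

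**Figure D5:**
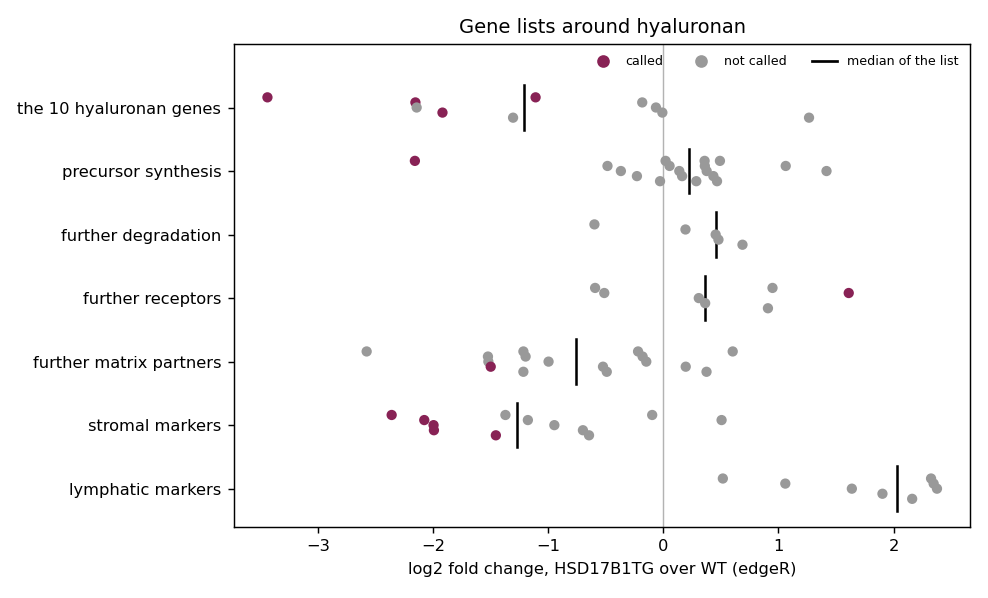
Log2 fold change in edgeR of each tested gene (points, called genes in purple) in the 10 hyaluronan genes, the 4 further hyaluronan lists and the stromal and lymphatic markers, with the median of each list as a black line. The medians of the hyaluronan genes (-1.21), the further matrix partners (-0.76) and the stromal markers (-1.28) lie on the negative side, and those of precursor synthesis, degradation, receptors and lymphatic markers on the positive side.

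The genes most like each of the 10 were found by Pearson's r of log2 CPM over the 10 mice after the mean of each genotype was subtracted. For *Has2* these were *Spats1* (r = 0.964) and *Pim3* (0.958). *Vcan* was most like *Rab15* (r = 0.948) and *Gm49326* (0.942), and *Tnfaip6* most like *Tmem191c* (0.916) and *Milr1* (0.914). *Cd44* was most like *Pxylp1* (r = 0.975) and *9330162012Rik* (0.963), and *Lyve1* most like *Exoc3l4* (0.980) and *Tspan2* (0.976). For *Has1* they were *Spryd3* (r = 0.963) and *Ighmbp2* (0.944), for *Has3* *Gm45769* (0.955) and *Atat1* (0.940), and for *Cemip* *Zfx* and *AC164424.1* (both 0.892). *Hyal1* was most like *Arhgap20* (r = 0.941) and *AC154187.2* (0.929), and *Hyal2* most like *Grtp1* (0.966) and *Ap4m1* (0.962). None of the 10 hyaluronan genes was among them. These are the highest correlations over all other genes tested, from mice that share depth and tissue makeup, and they are given as a description.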

How the data were processed

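Uterine RNA of 5 HSD17B1TG and 5 WT mice was sequenced by the authors as paired-end reads and mapped with HISAT2 2.0.5 against GRCm38 and its Ensembl genes. The deposited table holds, per gene and mouse, a raw count and the FPKM computed by the authors, which follow from the count, the gene length of the table and 1 fragment number per mouse (0.854 to 1.16 times its total count). Which program counted the reads, and whether by strand, is not given in the sources used here, so reads of overlapping genes may have been assigned to either. The deposited fold changes, p-values and over-representation tables of the authors' own comparison were not used.

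Mice were grouped by the genotype of their labels. No label explains a batch. edgeR 4.0.16 (R 4.3.3) was run with the filterByExpr filter, TMM factors and the quasi-likelihood test, and p-values were adjusted by Benjamini-Hochberg over the genes tested. The call thresholds follow the study's methods. Alternatives were DESeq2 1.42.0, limma 3.58.1 (voom, quality weights, log2(FPKM + 1), log2(FPKM + 0.1)), other normalizations and filters, and each mouse left out. For single genes, an exact permutation test (two-sided, unadjusted) went through all 252 assignments of the mice. A count of 3 in the shallowest library is 0.202 CPM, a limit of counting error only.

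The 10 genes, the further hyaluronan lists (precursors, degradation, receptors, matrix partners) and the marker lists (stroma, leucocytes, lymphatic and blood endothelium, macrophages, neutrophils, epithelium, smooth muscle, mesothelium) were chosen with earlier results of these data known. Of each further list, the called genes are named (where none was called, the rule took the gene with the smallest p, which is not reported here), and for each of the 10 genes the 2 genes most like it. The methods were tested on simulated data. Coordinates and overlaps are from the table and GENCODE M21 (28447 of the 29268 genes matched in position), and promoters are from RefSeq (GRCm38.p6).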

Additional observations from a re-analysis of the deposited data

How the results depend on the processing

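No paired analysis was possible because the labels give animal numbers that do not pair HSD17B1TG with WT mice. *Has1*, *Has2*, *Has3*, *Cd44*, *Vcan* and *Tnfaip6* were lower in HSD17B1TG in each of the 21 fits, with and without all mice. The other normalizations and filters kept the 4 calls, and the median of the 10 genes, -1.21, was -0.47 on log2(FPKM + 1). DESeq2 called 1572 genes and voom with quality weights 1748, against 721 in edgeR, and both called the same 4 of the 10. DESeq2 passed *Has3* (log2 fold change -1.30). *Cd44* missed 0.05 in limma's voom (-1.04) and in limma on log2(FPKM + 1) (-0.91) and log2(FPKM + 0.1) (-1.02), and the cause was not tested. With each mouse left out, 65 to 1554 genes and 0 to 5 of the 10 were called, and log2 fold changes lay between -4.19 and -3.21 for *Has2*, -2.14 and -1.77 for *Vcan*, -2.38 and -1.95 for *Tnfaip6*, -1.28 and -0.97 for *Cd44*, -1.47 and -1.05 for *Has3*, -2.45 and -1.83 for *Has1*, -0.36 and -0.03 for *Hyal1*, and 0.93 and 2.02 for *Lyve1*. Fits with fewer mice have fewer degrees of freedom. *Hyal2*, close to 0, turned to 0.0033 without TG1 and 0.014 without WT5 and went down to -0.17. *Cemip*, also close to 0, was between -0.29 and 0.31 and turned positive without TG1 (0.06), TG2 (0.06), TG3 (0.12), WT2 (0.31) and WT4 (0.22), in voom (0.15, or 0.10 with quality weights) and on log2(FPKM + 1) (0.0030) and log2(FPKM + 0.1) (0.062). A pseudocount of 1 moved no exact permutation test of the 10 genes across 0.05. The synthase shares moved by less than 1 SD with CPM in place of FPKM and with each mouse left out. Depth limits the synthases and *Cemip*, with as few as 0 counts in a mouse for *Has1*, 7 for *Has2*, 12 for *Has3* and 20 for *Cemip*.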

Other observations

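The remaining marker lists were examined for the cells that could surround the hyaluronan matrix. For comparison, 26.1% of all genes tested had an unadjusted p-value under 0.05 in edgeR. All 8 smooth muscle markers had positive log2 fold changes (median 0.64, but 0.12 with 7 of 8 positive without TG1, 0.37 without WT2, 0.34 without WT3 and 1.57 without WT4, and with all mice 1.07 in voom, 1.30 with quality weights, 0.99 on log2(FPKM + 1) and 1.06 on log2(FPKM + 0.1)), none was called or had an unadjusted p-value under 0.05 in edgeR, and DESeq2 gave none an adjusted p-value under 0.05. Of 9 epithelial markers, 8 had positive log2 fold changes (median 1.24), and none was called in edgeR, where 6 had an unadjusted p-value under 0.05, but 4 were called higher without TG1, beside 4.42% of all genes, and 4 without WT4, beside 5.12%. Of 8 blood endothelial markers, 6 had negative log2 fold changes (median -0.58), none was called in edgeR and 4 had an unadjusted p-value under 0.05. With upper quartile scaling 1 was called lower, beside 2.38% of all genes, and with total-count scaling 1, beside 2.91%. The same number was called lower without the filter on low counts (1.19% of all genes) and with a filter at 1 CPM (2.27%). It was also 1 without TG1 (3.33%, median -0.88) and without WT4 (3.84%). Of 5 mesothelial markers, 4 had positive log2 fold changes, and none was called in edgeR, with 2 under an unadjusted p-value of 0.05. Their median was 1.44 in edgeR, 2.16 in voom, 2.37 with quality weights and 0.96 on log2(FPKM + 1). DESeq2 called 1 of them higher and voom with quality weights 3. WT4 had the highest WT level in 4 of the 5, as in *Lyve1*. Of 6 neutrophil markers in the table only 3 passed the filter on low counts, and none of these was called in edgeR, with 1 under an unadjusted p-value of 0.05. *S100a9* was at 0 in WT3, WT4 and WT5 and *Ly6g* in WT3 and WT5, so no median is given for them. DESeq2, which called 3.11% of all genes higher and 2.29% lower, gave adjusted p-values under 0.05 to 2 of the epithelial, 1 of the blood endothelial, 1 of the mesothelial and 1 of the neutrophil markers, and called all of these. Voom with quality weights, which called 6.37% of all genes higher and 3.91% lower, called 5 epithelial markers higher, 2 blood endothelial markers lower and 1 neutrophil marker higher.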
